A study of Mus musculus with 10 samples.

Results

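Platelet-derived growth factors (PDGFs) and their receptors were examined together with contractile genes of smooth muscle cells and myofibroblasts in whole mouse kidneys. The set was 10 genes: the ligand genes Pdgfa, Pdgfb, Pdgfc and Pdgfd, the receptor genes Pdgfra and Pdgfrb, the contractile genes Acta2, Tagln and Myh11, and the intermediate filament gene Des. A gene was measured where the array annotation gave its symbol alone for a row of the value table, which held for 9 of the 10 genes among 30084 genes in all. The exception was Pdgfra, whose only row also carries the symbol of the microRNA gene Mir7025, and that row is described apart from the others.

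The kidneys came from 5 knockout mice and 5 control mice aged 5 weeks, with 1 array per kidney. Knockouts were Lkb1flox/flox mice (Lkb1 is the gene Stk11) carrying KspCre, a Cre transgene under the promoter of the tubular cadherin gene Cdh16. Controls were Lkb1flox/+ or Lkb1flox/flox littermates without KspCre, and the labels do not say which control kidney had which genotype. All controls thus carried a floxed allele and none carried Cre, so the transgene and the loss of Lkb1 cannot be told apart. The titles call the tested group a Stk11 knockdown, the protocol a tubule-specific knockout, and the strain is given as C57Bl/6N in the sample fields and as mixed for the floxed line. Cre was directed to tubule cells, whereas the PDGF receptors and contractile genes are known mainly from other cells of the kidney.

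PDGFs are secreted dimers that bind receptor tyrosine kinases on mesenchymal cells. In the kidney, PDGF-B from endothelium recruits mesangial cells and pericytes through PDGF receptor beta, and both receptors mark interstitial fibroblasts. Pericytes and fibroblasts that turn into myofibroblasts gain smooth muscle actin (Acta2), while vascular smooth muscle expresses Acta2 together with Tagln and the smooth muscle myosin gene Myh11 all the time. Many contractile genes are driven by SRF (serum response factor), which binds a short DNA element called the CArG box.

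RefSeq promoter windows of 300 bases ran from 250 before to 50 after a transcript start on GRCm38.p6. Those of 6 members were searched on both strands for this element. No window was available for Pdgfb, Tagln and Myh11. Pdgfrb was left out of the search, so nothing is said here about its promoter. The windows of Acta2, Des and Pdgfc are shown because Acta2 and Des are the contractile and filament genes with a window and Pdgfc is the ligand whose level changed. Capitals mark CArG boxes, either exact or with 1 G or C among the 6 inner A or T bases, and no 2 boxes overlap here. The sequences read 5′ to 3′ on the strand of the gene, at chr19:34255324-34255623 (minus strand), chr1:75360042-75360341 (plus strand) and chr3:81036166-81036465 (plus strand).
Acta2: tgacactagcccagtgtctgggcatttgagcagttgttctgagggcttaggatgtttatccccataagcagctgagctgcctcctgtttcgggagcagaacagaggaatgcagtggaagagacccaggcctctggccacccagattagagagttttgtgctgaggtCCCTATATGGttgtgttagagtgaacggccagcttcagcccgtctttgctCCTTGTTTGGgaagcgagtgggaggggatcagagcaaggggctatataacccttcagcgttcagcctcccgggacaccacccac
Des: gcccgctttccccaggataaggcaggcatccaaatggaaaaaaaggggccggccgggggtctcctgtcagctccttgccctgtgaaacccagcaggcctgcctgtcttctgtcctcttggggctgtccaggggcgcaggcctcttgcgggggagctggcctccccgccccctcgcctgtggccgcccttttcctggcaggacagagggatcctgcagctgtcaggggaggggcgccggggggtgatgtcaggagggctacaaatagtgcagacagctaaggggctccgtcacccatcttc
Pdgfc: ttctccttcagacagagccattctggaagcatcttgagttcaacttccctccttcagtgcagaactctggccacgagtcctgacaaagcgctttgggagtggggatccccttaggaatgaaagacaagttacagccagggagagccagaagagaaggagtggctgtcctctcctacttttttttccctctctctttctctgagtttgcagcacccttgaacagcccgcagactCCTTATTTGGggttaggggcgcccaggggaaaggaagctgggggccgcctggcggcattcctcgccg

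The Acta2 window held 2 boxes with an inner G or C, beginning 84 and 34 bases before the start, and the Pdgfc window held 1 exact box beginning 17 bases before it. No box of either kind was found in the Des window or in those of Pdgfa, Pdgfd and Pdgfra, which says only that these letters are absent from these windows. Of 32851 RefSeq windows, 1.63% held an exact box, 9.98% held a box of either kind, and 0.82% held 2 or more. The matches are a description of sequence, and no binding was measured.

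Stk11, the targeted gene, measured 9.12, 9.21, 9.07, 9.21 and 9.31 in knockouts 1 to 5, against 9.43, 9.40, 9.48, 9.46 and 9.40 in controls 1 to 5. All values here and below are log2 expression levels after RMA (robust multi-array average), and differences are knockout minus control on that log2 scale. Array medians ran from 5.35 to 5.42 and the medians over the 5222 negative control probe sets ran from 5.10 to 5.37. The mean of each measured member exceeded at least 83.1% of those probe sets in both groups, with Des the dimmest. The tubule markers Umod, Slc12a1, Lrp2 and Aqp2, which define a kidney and were chosen for this check with their values known, were bright in all kidneys, with knockout means of 12.70, 12.23, 12.57 and 11.72 and control means of 13.16, 12.58, 12.78 and 10.78.

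Of the 9 measured genes, 3 were higher in knockouts (Pdgfrb, Tagln and Des), 1 was lower (Pdgfc) and 5 did not pass the threshold, an adjusted p of 0.05 over all genes by limma. Among all 30084 genes, 8.04% passed in either direction, 5.36% higher and 2.67% lower. Knockout and control values did not overlap for 3 members, namely Pdgfrb, Des and Pdgfc, beside 8.58% of all genes. The median difference of the members was 0.09, that of all genes -0.03. With 9 members these shares rest on few genes. Of all calls 66.7% were increases, and 55.6% after quantile normalisation, which left the calls of the members as they were.

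**Figure D1:**
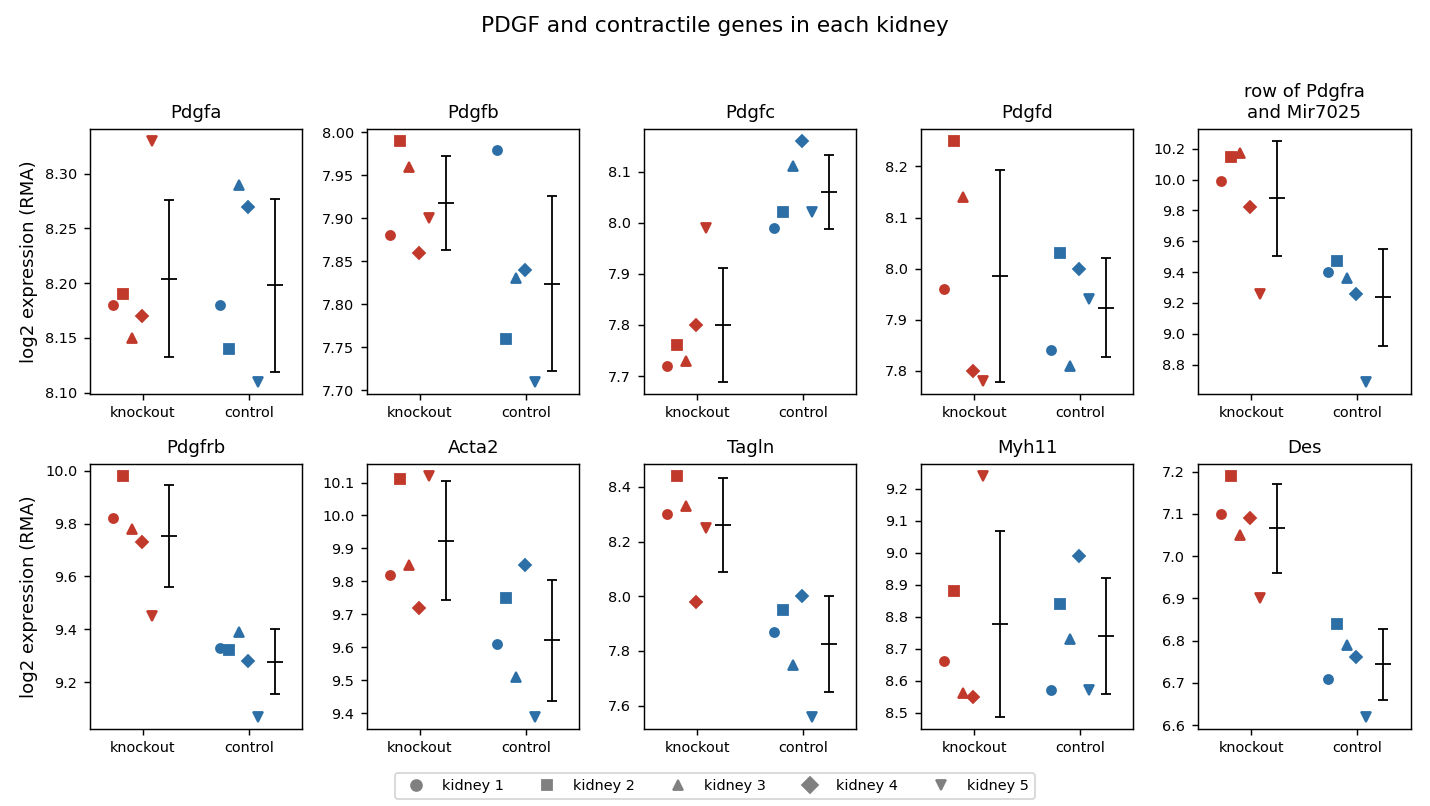
Log2 expression (RMA, vertical axes, each with its own range that does not start at 0) of the 9 measured genes and of the row shared by Pdgfra and Mir7025, with 5 knockout kidneys left and 5 control kidneys right in each panel; symbols mark the kidney number within a group and bars give mean ± SD. Pdgfrb and Des are higher in each knockout than in each control, Pdgfc is lower in each knockout, and Myh11 overlaps widely.

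Among the ligands, Pdgfc was lower in knockouts and the other ligand genes gave no call. Pdgfc encodes PDGF-C, a ligand of PDGF receptor alpha that is secreted in a latent form and must be cleaved to act. It lies on chromosome 3 at 81036416 to 81214040 (GRCm38.p6). Pdgfc measured 7.72, 7.76, 7.73, 7.80 and 7.99 in knockouts 1 to 5, against 7.99, 8.02, 8.11, 8.16 and 8.02 in controls 1 to 5. Knockouts 1 to 4 lay well under the controls, while knockout 5 was only 0.0083 below the lowest control. The means were 7.80 ± 0.11 in knockouts and 8.06 ± 0.07 in controls (SD, n = 5 each), so the level fell by 16.6% (log2 difference -0.26, SE 0.06, limma adjusted p = 0.0139). The exact permutation p was 0.00794, the smallest that 5 against 5 kidneys allow. Without controls 4 and 5, a choice made after the data were seen, the difference was -0.24 and the adjusted p 0.0703.

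Pdgfa, Pdgfb and Pdgfd did not pass. Pdgfa encodes the PDGF-A chain, which signals through PDGF receptor alpha and is made by many epithelia. Its values were 8.18, 8.19, 8.15, 8.17 and 8.33 in knockouts and 8.18, 8.14, 8.29, 8.27 and 8.11 in controls, a difference of 0.01 with a 95% interval from -0.10 to 0.12 (limma adjusted p = 0.936). The ranges of the groups overlapped almost fully.

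Pdgfb, the gene of the endothelial chain that recruits mural cells, measured 7.88, 7.99, 7.96, 7.86 and 7.90 in knockouts and 7.98, 7.76, 7.83, 7.84 and 7.71 in controls. The difference was 0.09 with an interval from -0.03 to 0.21 (limma adjusted p = 0.332). Control 1 was as high as the top knockouts, and the other 4 controls were below all knockouts. Pdgfd, whose product binds PDGF receptor beta after cleavage, was at 7.96, 8.25, 8.14, 7.80 and 7.78 in knockouts and 7.84, 8.03, 7.81, 8.0 and 7.94 in controls. Its knockouts spread more widely than its controls, with 2 above the highest control and 2 below the lowest (difference 0.06, interval -0.13 to 0.25, limma adjusted p = 0.716).

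Pdgfrb was the measured receptor gene, and it was higher in each of the 5 knockouts than in any control. It encodes PDGF receptor beta, the receptor of mesangial cells, pericytes and fibroblasts. Pdgfrb measured 9.82, 9.98, 9.78, 9.73 and 9.45 in knockouts 1 to 5, against 9.33, 9.32, 9.39, 9.28 and 9.07 in controls 1 to 5. Knockout 5 was the lowest of its group and control 5 the lowest of the controls. Mean levels were 9.75 ± 0.20 and 9.28 ± 0.12 in knockouts and controls (SD, n = 5 each), a 1.39-fold difference (95% interval 1.21 to 1.58; log2 difference 0.47, SE 0.09, limma adjusted p = 0.00675). The exact permutation p was 0.00794. In a whole kidney, more cells of a type and more RNA per cell cannot be told apart.

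The row annotated to both Pdgfra and Mir7025 measured 9.99, 10.15, 10.17, 9.82 and 9.26 in knockouts and 9.40, 9.47, 9.36, 9.26 and 8.69 in controls. PDGF receptor alpha is the receptor for PDGF-A and PDGF-C and a marker of interstitial fibroblasts. The kidneys numbered 5 were the lowest of both groups, and 4 of 5 knockouts were above every control. In a fit that also held the rows with several symbols (33728 names), the difference was 0.64 (SE 0.18, 1.56-fold, limma adjusted p = 0.0482). That call rests on the full set of kidneys: with 1 kidney left out at a time it passed in 1 of 10 fits, without knockout 5 (0.80, adjusted p = 0.00431), and the adjusted p was up to 0.118 in the others. With the replicate number as a block and all kidneys kept, the SE was 0.05 and the limma adjusted p 5.34e-04. The fits with 1 kidney left out had no such block, so they take no account of possible pairing by number. The share of the signal that belongs to each symbol was not measured.

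Among the contractile genes Tagln passed the threshold, and Acta2 and Myh11 did not. Tagln, which encodes transgelin (SM22), an actin-binding protein of smooth muscle, was higher in knockouts. It measured 8.30, 8.44, 8.33, 7.98 and 8.25 in knockouts 1 to 5, against 7.87, 7.95, 7.75, 8.0 and 7.56 in controls 1 to 5. Knockout 4 lay within the controls, just under control 4, and the other 4 knockouts were above them. The means were 8.26 ± 0.17 in knockouts and 7.83 ± 0.18 in controls (SD, n = 5 each), a 1.35-fold difference (interval 1.17 to 1.56; log2 difference 0.43, SE 0.09, limma adjusted p = 0.0143, exact permutation p = 0.0159). The gene is on chromosome 9 at 45929628 to 45936058.

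Acta2, the alpha smooth muscle actin gene used as the standard myofibroblast marker, did not pass the threshold. It measured 9.82, 10.11, 9.85, 9.72 and 10.12 in knockouts, against 9.61, 9.75, 9.51, 9.85 and 9.39 in controls. Knockouts 2 and 5 were the highest kidneys, and knockouts 1 and 4 were below control 4. The difference was 0.30 (SE 0.10, interval 0.09 to 0.52, 1.23-fold) with a limma adjusted p of 0.0812 and an exact permutation p of 0.0476. Without control 4 the difference was 0.36 and the adjusted p 0.0474.

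Myh11, the smooth muscle myosin heavy chain gene that marks differentiated vascular smooth muscle, measured 8.66, 8.88, 8.56, 8.55 and 9.24 in knockouts and 8.57, 8.84, 8.73, 8.99 and 8.57 in controls. Knockout 5 was the highest of all kidneys, while knockouts 3 and 4 were the lowest. The difference was 0.04 (interval -0.24 to 0.31, limma adjusted p = 0.890), and without knockout 5 it was -0.08.

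Des, which encodes desmin, the intermediate filament of muscle, mesangial cells and pericytes, was higher in each knockout than in each control. It measured 7.10, 7.19, 7.05, 7.09 and 6.90 in knockouts 1 to 5, against 6.71, 6.84, 6.79, 6.76 and 6.62 in controls 1 to 5. As for Pdgfrb, knockout 5 was the lowest knockout and control 5 the lowest control. Means of 7.07 ± 0.11 in knockouts and 6.745 ± 0.08 in controls (SD, n = 5 each) gave a 1.25-fold difference (interval 1.15 to 1.37; log2 difference 0.32, SE 0.06, limma adjusted p = 0.00579, exact permutation p = 0.00794). The gene lies on chromosome 1 at 75360292 to 75368579.

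**Figure D2:**
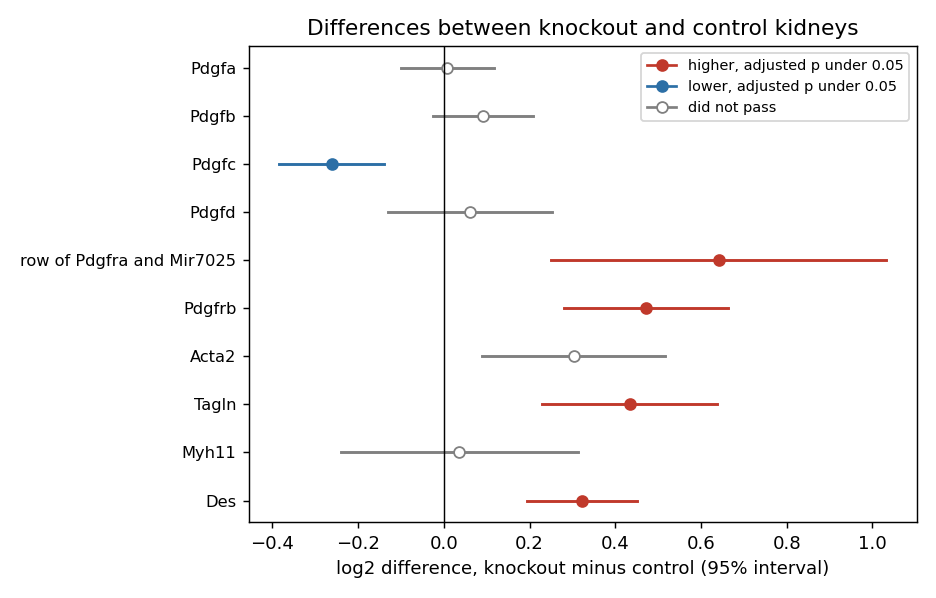
Log2 difference, knockout minus control, with its 95% interval from limma for the 9 measured genes and for the row shared by Pdgfra and Mir7025; filled red points are higher and filled blue points lower at an adjusted p under 0.05, open grey points did not pass. Pdgfrb at 0.47, Tagln at 0.43 and Des at 0.32 lie right of 0, Pdgfc at -0.26 lies left, and the interval of Myh11 spans 0.

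Whether members changed unequally was tested for all 36 pairs by the log2 difference between 2 genes within each kidney, with exact two-sided permutation tests adjusted over the 36 pairs, a comparison chosen after the data were seen. Past 0.05 were 7 pairs, each at the smallest possible exact p of 0.00794 (adjusted p = 0.0408). Of these, 5 set Pdgfc against another member: Pdgfc differed from Pdgfrb by -0.73 (SE 0.14), from Tagln by -0.70 (SE 0.13), from Des by -0.58 (SE 0.10), from Acta2 by -0.57 (SE 0.10) and from Pdgfa by 0.27 with Pdgfa on top (SE 0.03). The others set Pdgfd against Pdgfrb (-0.41, SE 0.10) and against Tagln (-0.37, SE 0.09).

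Within the contractile genes no pair passed this test. Pairs at the next exact permutation p of 0.0159 had an adjusted p of 0.0519, so here only the smallest exact p could pass. A pair that did not pass is thus not shown to have changed alike. The change in Tagln exceeded that in Myh11 by 0.40 (SE 0.14, exact permutation p = 0.0397, adjusted p = 0.0714) and the change in Acta2 exceeded that in Myh11 by 0.27 (SE 0.08, exact permutation p = 0.0238, adjusted p = 0.0536). In each of these comparisons 4 of 5 knockouts lay above all controls. Acta2 and Tagln differed in their change by -0.13 (SE 0.07, exact permutation p = 0.127).

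**Figure D3:**
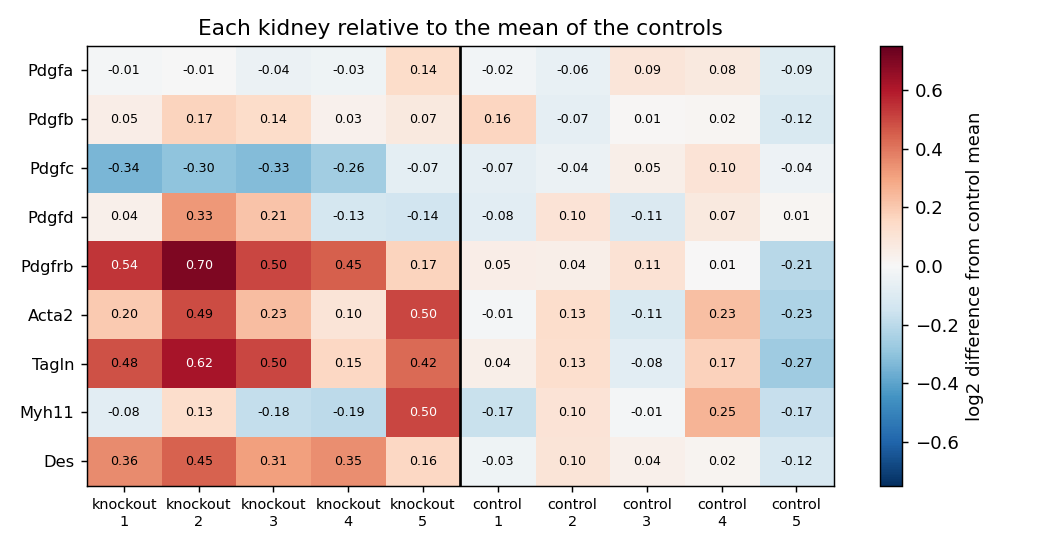
Log2 level of each measured gene (rows) in each kidney (columns, 5 knockouts left of 5 controls) relative to the mean of the controls, with the value printed in each cell. Pdgfrb, Tagln and Des are positive in all knockouts, Pdgfc is negative in all of them, and knockout 5 combines the highest Acta2 and Myh11 (0.50 each) with the lowest Pdgfrb (0.17) and Des (0.16) of its group.

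Knockout 5 differed from the other knockouts in several members. It had the highest Acta2, Myh11, Pdgfc and Pdgfa of its group, and the lowest Pdgfrb, Des and Pdgfd. It also had the highest Stk11 level among the knockouts (9.31). Without knockout 5 the differences were 0.55 for Pdgfrb, 0.44 for Tagln, 0.36 for Des and -0.31 for Pdgfc, all still past the threshold, and 0.25 for Acta2, which still did not pass.

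The gene patterns most like those of the members over the 10 kidneys were found by correlating deviations from the group means, among 13881 genes above the median negative control in all kidneys. These were picked as the highest of many correlations from 10 kidneys, so they are a description with no test. For the mean of Pdgfrb and the shared Pdgfra row, they were Lrp1 (Pearson r = 0.990), Lrrk1 (0.979), Timp2 (0.978), Lhfp (0.977) and Dpysl2 (0.975). By rank (Spearman) the correlations were 0.988, 0.867, 0.939, 0.842 and 0.721 in the same order. Of these genes, Lrp1, Timp2 and Lhfp were also higher in knockouts (log2 differences 0.50, 0.59 and 0.53), while Dpysl2 differed by 0.04 (limma adjusted p = 0.748) and Lrrk1 by 0.22 (adjusted p = 0.0636). For the mean of Acta2, Tagln and Myh11, they were Pgm2 (r = 0.933), Smad6 (0.916), Thoc5 (0.916), Mrpl23-ps1 (0.911) and Acacb (0.904), among which Acacb (-0.59) and Smad6 (-0.18) were lower in knockouts.

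Of 25 measured PDGF signalling intermediates and modulators, 3 were higher (12.0%, beside 5.36% of all genes), 0 lower and 22 did not pass (median difference 0.04). Before adjustment, limma put 4 genes higher and 1 lower at a p under 0.05. Lrp1, an endocytic receptor that binds PDGF receptor beta and modulates its signal, measured 9.71, 9.84, 9.79, 9.53 and 9.25 in knockouts and 9.18, 9.26, 9.24, 9.15 and 8.79 in controls. Its difference was 0.50 (SE 0.11, limma adjusted p = 0.0186), and as for Pdgfrb the kidneys numbered 5 were the lowest of their groups. The transcription factor gene Stat3 was 1.30-fold higher (adjusted p = 0.00118) and the receptor phosphatase gene Ptprj 1.12-fold (adjusted p = 0.0196). The count of 3 became 1 without knockout 2 and 5 without knockout 5.

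Of 7 proteases that release active PDGFs, 2 were lower, 0 were higher and 5 did not pass (median difference -0.02; 1 higher by limma at a p under 0.05 before adjustment). Plau, the urokinase gene whose product cleaves PDGF-D, differed by -0.26 (SE 0.06, adjusted p = 0.0212), and the convertase gene Pcsk7 by -0.24 (SE 0.05, adjusted p = 0.0119). Without control 3, knockout 1 or knockout 3 the count was 1. Plat, the gene of tissue plasminogen activator, which cleaves PDGF-C, differed by 0.30 (SE 0.11, adjusted p = 0.110) and is named here after its values were seen. Of 11 VEGF ligands and related receptors, 1 was higher (Csf1r, the macrophage growth factor receptor gene, at 0.36), 2 were lower (Kit at -0.25 and Vegfa at -0.16) and 8 did not pass (median 0.07). Csf1r is also among the macrophage markers below. The count of 1 became 2 or 3 without control 1, knockout 4 or knockout 5, and the count of 2 became 1 when any single control, or knockout 1 or 3, was left out.

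Of 23 other measured smooth muscle contractile and cytoskeletal genes, 9 were higher (39.1%), 0 lower and 14 did not pass. The median difference was 0.18. The shares of all genes, 5.36% higher and 2.67% lower, are the ones to set beside the counts of this and every other list. Flna, the actin cross-linker filamin A, measured 9.29, 9.43, 9.42, 9.07 and 8.96 in knockouts and 8.80, 8.82, 8.58, 8.67 and 8.36 in controls (1.51-fold, limma adjusted p = 0.00558). Actn1 (alpha-actinin 1) was 1.48-fold higher, Tpm1 (tropomyosin 1) 1.33-fold and Myl9, the regulatory light chain of smooth muscle myosin, 1.31-fold.

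The other 5 called genes, given here outside the rule for named genes, were Pgm5 at 0.36, Vcl (vinculin) at 0.32, Cald1 (caldesmon) at 0.31, the smooth muscle gamma-actin gene Actg2 at 0.25 (limma adjusted p = 0.0231) and the myosin light chain kinase gene Mylk at 0.18 (adjusted p = 0.042). Actg2 was dim, its control mean exceeding 50.9% of the negative control probe sets. Of the 14 genes with no call, also named after their values were seen, Cnn1 (calponin) differed by 0.16 (adjusted p = 0.382), Smtn (smoothelin) by 0.07 (adjusted p = 0.457) and Lmod1 (leiomodin) by -0.04 (adjusted p = 0.689). The count of 9 became 5 without control 1, control 3, control 5 or knockout 2. Before adjustment, limma gave 0 lower genes in this list at a p under 0.05.

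Of 17 regulators of SRF-driven transcription, 6 were higher, 0 lower and 11 did not pass (median 0.16; 0 lower by limma at a p under 0.05 before adjustment). Gata6, a factor of vascular smooth muscle, differed by 0.37 and the SRF coactivator gene Mrtfa by 0.26. Fhl2, a cofactor gene that SRF activates, differed by 0.22 and Klf4, a repressor of contractile genes, by 0.21. Srf itself differed by -0.04 (adjusted p = 0.767) and myocardin (Myocd) by 0.16 (adjusted p = 0.115), both named after their values were seen. The count of 6 was near the threshold throughout: it became 1 to 3 without any one of controls 1, 3, 4 and 5 or knockouts 1 to 4, 3 after quantile normalisation and 2 after median centring.

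Of 17 measured pericyte and mural cell markers, 3 were higher, 0 lower and 14 did not pass (median 0.01; 2 lower by limma at a p under 0.05 before adjustment). Steap4, a metalloreductase gene, measured 7.44, 7.67, 7.66, 7.29 and 7.01 in knockouts and 6.78, 6.67, 6.76, 6.61 and 6.45 in controls (1.69-fold, limma adjusted p = 0.00207). Rgs5, a regulator of G protein signalling typical of pericytes, was 1.22-fold higher and the guanylate cyclase subunit gene Gucy1b1 1.19-fold. Cspg4 (NG2, difference -0.03) and Notch3 (-0.04), classical markers named here after their values were seen, did not pass. The 2 markers lower before adjustment, also named after their values were seen, were Abcc9 (-0.22, limma adjusted p = 0.054) and Higd1b (-0.15, adjusted p = 0.206). At that unadjusted level 5 markers were higher, so the list moved in both directions. The count of 3 became 1 without control 1, control 5, knockout 2 or knockout 3, and 1 marker was lower without control 4, knockout 4 or knockout 5. Of 6 measured mesangial and renin cell markers, 1 was higher (the prostaglandin receptor gene Ptger4, 0.29), 0 were lower and 5 did not pass (median -0.04; 1 lower by limma before adjustment, and 1 called lower without knockout 5).

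Of 24 measured fibroblast markers, 12 were higher, 0 lower and 12 did not pass, with a median of 0.54. The matrix protein gene Dpt was 5.30-fold higher. The fibronectin gene Fn1 differed 2.58-fold and Postn, which encodes the matricellular protein periostin, 2.57-fold. The proteoglycan gene Lum was at least 2.47-fold higher, its control level being at background. Before adjustment, 0 fibroblast, macrophage or urothelium markers were lower by limma at a p under 0.05. The summed linear signal of the fibroblast list was 142% to 231% of the control mean in knockouts and 90.7% to 107% in controls. Fap (4.10, 4.12, 4.09, 4.08 and 4.17 in knockouts, 4.12, 4.07, 4.18, 4.15 and 4.09 in controls), a defining gene of activated fibroblasts, was below the median negative control in both groups, and 3 genes of the list were so. Of 13 macrophage markers 13 were higher (median 0.95, led by Lyz2 at 5.19-fold, Mpeg1 at 2.78-fold, Mrc1 at 2.65-fold and Ctss at 2.48-fold), with a summed signal of 152% to 280% of the control mean in knockouts and 91.2% to 111% in controls. Their part in the changes of the members was not tested.

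In knockouts 1 to 5 the mean of the fibroblast list relative to controls was 0.71, 0.84, 0.90, 0.48 and 0.40, and in controls 1 to 5 it was 0.00, 0.02, 0.07, 0.05 and -0.14. Knockout 5 and control 5 were the lowest of their groups, as for Pdgfrb, Des and the shared Pdgfra row. This was not particular to fibroblast markers. The same 2 kidneys had the lowest list means for the VEGF, contractile, SRF regulator and pericyte lists. They also had the lowest means for the endothelial markers described below (-0.14 in each), of which none was called. Acta2 and Myh11, in contrast, were highest in knockout 5.

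Of 9 urothelium and ureter markers, 5 were higher, 0 lower and 4 did not pass (median 0.42), with Upk1b at 2.63-fold, Upk1a at 1.57-fold, Upk2 at 1.5-fold and Ivl at least 1.31-fold. Their summed signal was 124% to 170% of the control mean in knockouts and 70.0% to 133% in controls. The mean of the list was 0.27, 0.65, 0.41, 0.43 and 0.54 in knockouts 1 to 5 and -0.08, 0.12, -0.01, 0.36 and -0.40 in controls 1 to 5. Control 4 had the highest and control 5 the lowest level of the controls for this list, as they had for Acta2, Tagln and Myh11. The adipocyte markers below had the same extremes among controls (0.39 and -0.24), as did the tubule markers (0.05 and -0.08). Among knockouts the urothelium list was lowest in knockout 1, while Acta2, Tagln and Myh11 were lowest in knockout 4. Without controls 4 and 5 the difference was 0.40 for Tagln (limma adjusted p = 0.0352), 0.30 for Acta2 (adjusted p = 0.114), 0.40 for Pdgfrb (adjusted p = 0.0397) and 0.29 for Des (adjusted p = 0.0379). Without these 2 controls the counts of higher genes were also smaller in several lists, at 1 for PDGF signalling, 5 for the contractile genes and 0 for the SRF regulators, the mesangial markers and the VEGF list. The part of urothelial or ureteral tissue in the changes of the members was not tested.

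Markers of other possible sources gave no call by limma. These were 12 endothelial markers (median 0.01; Cdh5 at 0.18 and Kdr at -0.18, where a p under 0.05 before adjustment was met by 1 lower gene) and 8 platelet markers (median -0.04; Itgb3 at 0.05 and Ppbp at -0.08, with 0 in either direction). They also included 14 skeletal and cardiac muscle markers (median -0.05; Myh6 at -0.11 and Myl1 at -0.08, 0 higher and 1 lower) and 6 podocyte markers (median 0.01; Nphs1 at -0.10 and Ptpro at -0.13, 0 in either direction). The last were 7 adipocyte markers (median -0.13; Fabp4 at 0.20 and Lpl at -0.30, 0 higher and 1 lower). Without knockout 2 the endothelial list had 1 lower call, and without control 4 or knockout 1 the adipocyte list had 1. The summed signal of the muscle list was 91.9% to 104% of the control mean in knockouts and 92.2% to 106% in controls, and 4 of its members, among them Myl1, were below the median negative control in both groups. Of 10 kidney tubule markers, 6 were lower, 1 was higher and 3 did not pass (median -0.28), with Slc4a1 at -0.75, Calb1 at -0.54, Slc5a2 at -0.46 and Aqp2 at 0.94. The summed tubule signal was 82.0% to 89.7% of the control mean in knockouts and 97.2% to 102% in controls. Whether a smaller tubule share contributes to the higher levels of non-tubular genes was not tested.

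**Figure D4:**
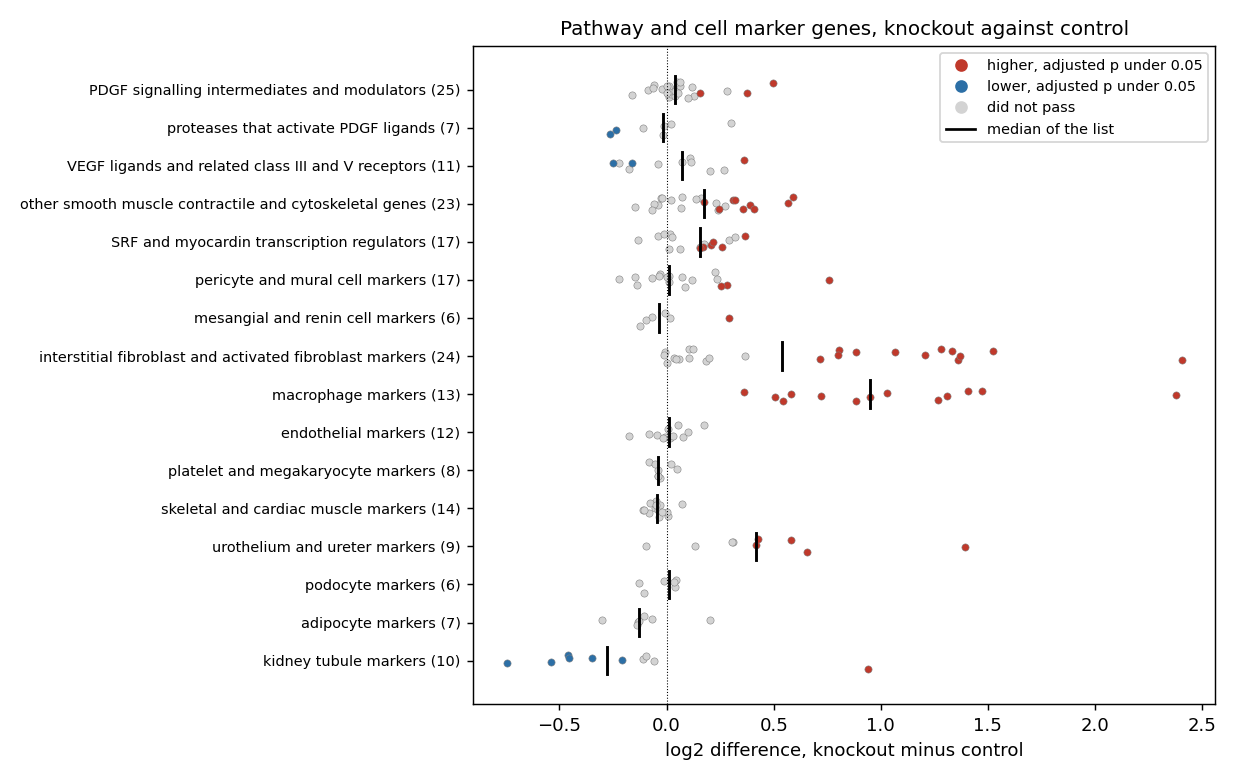
Log2 difference, knockout minus control, of each measured gene in 16 pathway and cell marker lists (number of genes in brackets; vertical scatter within a row has no meaning); red points are higher and blue points lower at an adjusted p under 0.05, grey points did not pass, and black ticks are list medians. The macrophage median (0.95) and the fibroblast median (0.54) lie farthest right. The mural, endothelial, skeletal and cardiac muscle, and podocyte medians lie within 0.05 of 0.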

How the data were processed

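Total RNA of whole kidneys was hybridised to Affymetrix whole-transcript arrays, 1 array for each of 5 knockout and 5 control mice, per the labels' protocols. The deposited values are log2 expression per transcript cluster after RMA on genome build mm10, per the submitters' processing notes; that the scale is log2 was taken from the value range, and software versions were not stated there. RMA summarises the probes of a transcript cluster in a single value per array, so isoforms are not resolved. Arrays carry no read depth, so their number limits the precision.

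Rows were named through the platform annotation, with 1104 symbols updated through RefSeq. Of 72688 rows, 30604 had 1 symbol, 2146 had several and 39938 had none; rows of 1 symbol were averaged to 30084 genes. Groups were compared with limma 3.58.1 in R 4.3.3 (lmFit, eBayes with a mean-variance trend, two-sided, Benjamini-Hochberg over all genes, threshold 0.05, no filter, no covariate). Single values were also tested with exact two-sided permutation tests (scipy 1.17.1). The fit was also run on simulated data with independent normal values for each gene and array. Such data hold no pairing and no correlation between genes, so that run cannot show how either affects the p-values here. Where a control level exceeded under 50% of negative control probe sets and a fold is printed, it is a bound with values floored at each array's median of those probe sets.

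The members and the 16 gene lists were chosen with earlier results of these data known. Named genes were all members, Stk11, for each list at most 4 called genes, taken by size of difference (where none was called, 2 genes by smallest p), and the 5 genes most alike in deviation to each of 2 member means; the Pdgfra part of that rule used the shared row. Alternatives were quantile normalisation, median centring, a filter on dim genes, eBayes without trend or robust, array weights, the brightest row per gene, rows with several symbols, the replicate number as a block, each kidney left out, and 2 chosen after seeing the data (without both kidneys numbered 5, without controls 4 and 5). Whether kidneys of a group came from separate litters is not in the labels.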

Additional observations from a re-analysis of the deposited data

Results flagged for a closer look

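Among 20 groups of 5 values (10 rows in 2 groups), 2 held a kidney far from the rest of its group by Dixon's test at the 95% level, and chance alone flags about 1 in 20. Pdgfa in knockout 5 was 8.33, against 8.19 in the next kidney of that group. The row shared by Pdgfra and Mir7025 was 8.69 in control 5, against 9.26 in the next control.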

How the results depend on the processing

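Pdgfrb, Tagln and Des stayed higher and past the threshold under all 21 alternative fits (log2 differences 0.40 to 0.55, 0.37 to 0.50 and 0.29 to 0.36), and Pdgfc stayed lower (-0.32 to -0.24) and past it in 20. Without controls numbered 4 and 5 the count of lower members was 0, and the cause beyond fewer samples was not tested. Acta2 passed in 1 fit, without control 4. Leaving out 1 kidney at a time gave 3 to 4 higher members, 1088 to 1950 higher genes and 435 to 1470 lower genes (804 with all kidneys; 1470 without knockout 5, 435 without knockout 2, and 473, 496, 511 and 436 without control 3, control 1, knockout 1 and knockout 3). The count of lower genes was 1300 after quantile normalisation and 471 without controls numbered 4 and 5. Signs near 0 turned for members with no call: Pdgfa was -0.003 after quantile normalisation, -0.001 with array weights, -0.046 without both kidneys numbered 5 and, with 1 kidney left out, from -0.023 (without knockout 5) to 0.032, being negative also without control 2 and control 5. Pdgfd was -0.005 without knockout 2 and up to 0.112 without knockout 5. Myh11 was -0.003 with array weights, -0.123 without both kidneys numbered 5 and, with 1 kidney left out, -0.006 without control 1 or control 5, -0.080 without knockout 5 and up to 0.099 without control 4. Deviations of same-numbered kidneys correlated at 0.25, 0.313, 0.104, -0.079 and 0.194 for numbers 1 to 5, and 7 of 10 kidneys correlated best with their own number, a hint of pairing from the data. The controls were littermates, but the labels do not say which kidneys shared a litter or batch. The unblocked fit was kept, as the kidneys numbered 4 did not correlate. Pairing by number is not excluded by that, and the main SEs, intervals and p-values take no account of it. With the replicate block the members' calls were unchanged (3 higher, 1 lower), with 1826 higher and 955 lower genes in all, and higher calls went to 5 in the pericyte and mural list (3 without the block) and 3 in the VEGF list (1 without). Of 986 values of Stk11 and the named list genes, 0 turned their sign and 89 no longer passed. The genes most alike to the 2 member means were not followed across the alternatives, except Lrp1, which is a named list gene.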
